A study of Equus caballus with 9 samples.

Results

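The transcriptomes of late fetal and adult horse tenocytes were compared in 6 of the 9 cultures of the series. No measured value decides which lines belong to the comparison, which follows their labels: 3 fetal lines of gestation days 319, 320 and 321, and 3 adult lines from horses aged 2 to 6 years. Each line was grown in 2D in high-glucose medium with 10% fetal bovine serum, L-glutamine, penicillin and streptomycin, and was passaged with trypsin. The labels name no transgene or treatment for these 6 lines, which were cultured cells rather than tissue. Passage numbers were 6, 3 and 7 in fetal replicates 1, 2 and 3, and 5, 6 and 4 in adult replicates 1, 2 and 3, so the 2 ranges overlapped. Replicate numbers follow the order of deposition and pair nothing across the groups. The labels say neither which tendon was sampled nor whether any animals were related. The sample details used here hold no sex or breed, so neither could be set against the fetal and adult labels. The p-values set the difference between the groups against the spread between these cultures. The 3 cultures derived from embryonic stem cells entered neither the filter nor the tests, except in a fit of all 9 libraries that is named where it is used.

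Tenocytes are the fibroblast-like cells of tendon that lay down and maintain its collagen fibres. In culture they are commonly passaged as flat, dividing cells away from the aligned matrix and mechanical load of the tendon. Fetal tendon is known for healing with little scar, whereas adult tendon commonly heals with a scar that is weaker than the original tissue. The expression data used here do not measure healing, so no such trait is shown for these late fetal lines. The series title sets fetal, adult and stem-cell-derived tenocytes side by side for their immune properties, and the comparison described here asks how far the primary fetal and adult cells differed in gene expression before any immune challenge. Genes are given by Ensembl identifier, because 0 of the 21689 identifiers could be matched to a gene symbol. For the same reason the tenocyte label was not checked against marker genes, and no role can be stated for any gene named below.

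Fetal and adult libraries overlapped in depth and complexity. Totals ran from 20166692 to 23436766 counts in fetal and from 21454277 to 23767643 in adult libraries. Fetal libraries held 12524 ± 48.9 genes with at least 10 counts and adult libraries 12405 ± 238 (SD, n = 3 each), with 12133 in adult replicate 2 and 12468 to 12576 in the other 5. The share of counts in the top 100 genes by abundance was 38.7% ± 2.55 in the fetal group and 39.3% ± 3.89 in the adult group (SD, n = 3 each). None of these 3 measures differed beyond the spread between lines: exact permutation p, two-sided, was 0.4 for totals, 0.7 for detected genes and 0.9 for the abundant share, each 0.9 after Benjamini-Hochberg adjustment, and 0.1 is the smallest p that 3 against 3 allows. The abundant share ran from 35.1% in adult replicate 3 to 42.7% in adult replicate 1, so both ends of the range lay within the adult group.

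Fetal and adult lines lay among each other. The distance between a pair of libraries was taken as the root mean square difference of log2 CPM (read counts scaled to a common library size by TMM, which trims extreme genes when it sets the scale, with a prior count of 2). It was taken over the 12516 genes that passed a filter on low counts, which are the genes tested below. Fetal pairs lay 0.63 to 0.84 apart, adult pairs 0.78 to 0.90, and pairs of a fetal and an adult line 0.60 to 1.07. The mean was 0.70 over 3 fetal pairs, 0.82 over 3 adult pairs and 0.78 over 9 mixed pairs. Mixed pairs thus exceeded pairs within a group by 0.02 on average, and the exact permutation test over the 10 splits of 6 lines, one-sided, gave p = 0.2, where 0.1 is the smallest possible. This excess changed sign with the lines included, from -0.05 without fetal replicate 3 to 0.11 without adult replicate 3.

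Each adult line had a fetal line as its nearest neighbour. Adult replicates 1 and 2 were nearest to fetal replicate 1, at 0.78 and 0.68. Adult replicate 3 was nearest to fetal replicate 2 at 0.60, the shortest of the 15 distances. Fetal replicates 1 and 3 were nearest to fetal replicate 2, at 0.63 and 0.64. The longest distance, 1.07, separated fetal replicate 3 from adult replicate 1. Counted by gene, 832 genes differed at least 4-fold between that pair and 138 between fetal replicate 2 and adult replicate 3. Between lines of the same group the number was 159 to 442 for fetal and 326 to 460 for adult pairs.

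**Figure D1:**
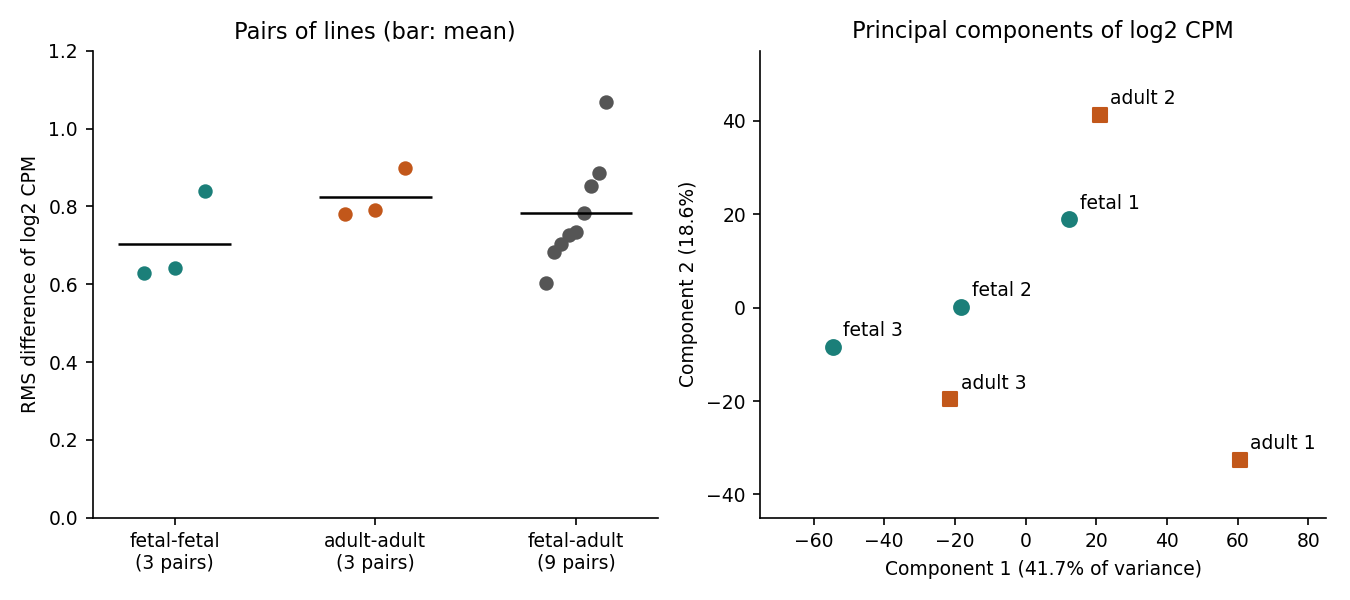
Left, the root mean square difference of log2 CPM for each of the 15 pairs of lines, with the mean of each kind of pair as a bar. Right, the first 2 principal components of log2 CPM, with fetal lines as circles and adult lines as squares. The mixed pairs span 0.60 to 1.07, around the values of both kinds of within-group pair, and the groups overlap on both components.

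The main axes of variation did not follow the age label. The first principal component held 41.7% of the variance, with fetal lines at -54.5 to 12.3 and adult lines at -21.3 to 60.6. Components 2, 3 and 5 held 18.6%, 15.3% and 9.44%, and the groups overlapped on each. Component 4, with 14.9%, was the 1 component of 5 on which all fetal lines lay on one side of all adult lines, at 1.99 to 39.97 against -28.4 to -1.21.

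Some lines stood apart from all the rest. Relative to every other line, adult replicate 1 was higher by 4-fold or more in 42 genes and lower by as much in 51. Fetal replicate 3 was above in 20 and below in 29, and adult replicate 2 was above in 3 and below in 26. In the other 3 lines the numbers were 0 to 1 above and 3 to 7 below. By the same measure, all 3 fetal lines were at least 4-fold above all 3 adult lines in 5 genes and at least 4-fold below them in 3. A set of 3 lines has to hold its level in every member to be counted, which a single line does not, so these counts describe the lines and do not rank the sources of variation.

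**Figure D2:**
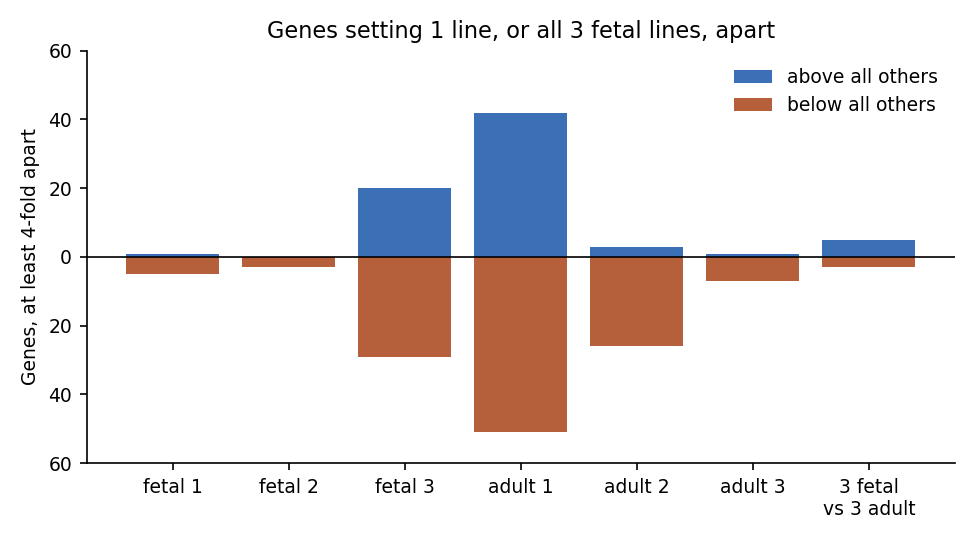
Number of genes at least 4-fold (log2 CPM, prior count of 2) above or below all others, for each line against the other 5 and, at the right, for the 3 fetal lines against the 3 adult lines. Bars above 0 count genes higher in the named line or group and bars below 0 genes lower there; adult replicate 1 has the tallest bars, 42 and 51 genes, against 5 and 3 for fetal against adult.

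Spread within a group was slightly larger among adult lines. The median SD of log2 CPM over genes was 0.27 among fetal and 0.29 among adult lines, and the adult SD was the larger in 55.3% of genes. A range of at least 4-fold within the group was seen in 591 genes (4.72%) among fetal lines and 763 (6.10%) among adult lines, 252 of them in both. The difference in spread between the groups was not tested.

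Gene by gene, 1 of the 12516 genes tested differed between fetal and adult tenocytes, which is 0.00799% (edgeR quasi-likelihood test, Benjamini-Hochberg adjusted p under 0.05). It was lower in fetal lines. The next lowest adjusted p was 0.749. At an unadjusted p under 0.05 there were 431 genes, 3.44% of those tested, 232 higher and 199 lower in fetal lines. With no difference at all, a share of 0.05 of genes would be expected under that threshold. The 431 are therefore not counted as genes that differ. The count of 431 moved with single lines, to 763 of 12720 genes when fetal replicate 1 was left out and 804 of 12721 when adult replicate 3 was. Both of these are above a share of 0.05, so the comparison with that share depended on the lines included. By adjusted p, edgeR called 0 genes in either fit.

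The gene called was ENSECAG00000018100. It stood at 0, 0.047 and 0 CPM in fetal replicates 1, 2 and 3, and at 11.7, 10.6 and 13.4 CPM in adult replicates 1, 2 and 3. The fetal libraries were empty but for 1 count, and the adult libraries held 252, 223 and 315 counts, so the groups were far apart and the adult lines differed little among themselves. In bulk cultures a level carried by fewer cells and a lower level in each cell cannot be told apart. Over the libraries this is 1 count against 790, an adult level 784 times the fetal one with a 95% counting interval of 140 to 30991. That interval pools the reads of each group and leaves out the spread between lines. The fitted log2 fold change (fetal minus adult) came to -9.15 (edgeR adjusted p = 0.0113). Because of the single fetal count, its size depends on the prior count of the edgeR fit, which is not the 2 used for log2 CPM. The SE of 0.60 was derived from the F statistic. It is too small to stand for the uncertainty of this ratio, since the counting interval is wider even without the spread between lines. Leaving out 1 line at a time, the edgeR adjusted p was 0.0453 without adult replicate 1 and 0.0713 to 0.140 without any other line. The call was thus lost in 5 of 6 cases. Each of these fits held 1 line fewer, which by itself weakens the test, and the log2 fold change stayed between -11.04 and -8.69. In a fit of all 9 libraries, the SE rose to 1.74 and the edgeR adjusted p to 0.552. This gene was at 0.361, 0.532 and 11.04 CPM in the 3 stem-cell-derived libraries, whose spread enters that fit.

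The other 3 identifiers met the rule for naming, which required separate groups and ranked genes by unadjusted p, without passing the test. Their values therefore describe these lines and are not called changes. ENSECAG00000018739 stood at 21.7, 11.4 and 20.8 CPM in fetal replicates 1, 2 and 3 and at 2.64, 2.60 and 4.41 CPM in the adult ones. The lowest fetal line was 2.59 times the highest adult line, and the lines of a group differed at most 1.90-fold among fetal and 1.69-fold among adult cultures. The fitted difference was 2.48 ± 0.35 on the log2 scale (SE, edgeR adjusted p = 0.749).

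The second gene with higher fetal levels, ENSECAG00000023841, varied more. Its level was 24.4, 145 and 109 CPM in fetal replicates 1, 2 and 3, a 5.95-fold range, and 2.36, 3.65 and 6.62 CPM in adult replicates 1, 2 and 3. The groups did not overlap, as the naming rule required, but fetal replicate 1 was much nearer to the adult lines than were the other 2 fetal lines. On the log2 scale the fitted difference was 4.46 ± 0.72 (SE, edgeR adjusted p = 0.749).

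ENSECAG00000009553 had the opposite direction, with 1.95, 0.189 and 0.353 CPM in fetal replicates 1, 2 and 3 and 16.1, 35.1 and 95.3 CPM in adult replicates 1, 2 and 3. Both groups were uneven, with a 10.3-fold range among fetal and a 5.92-fold range among adult lines, yet the lowest adult line was 8.24 times the highest fetal line. Fetal minus adult, the fitted log2 difference was -5.86 ± 1.01 (SE, edgeR adjusted p = 0.749).

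**Figure D3:**
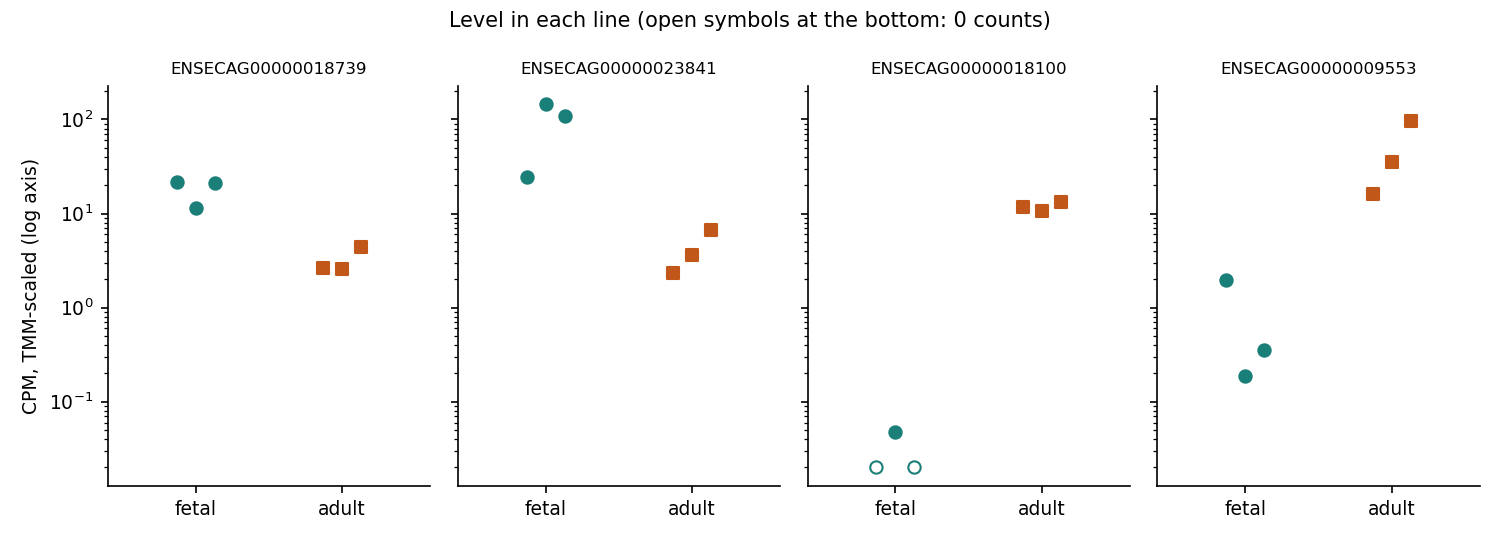
Level of each of the 4 named genes in CPM (TMM-scaled, log axis) in the 3 fetal lines (circles) and 3 adult lines (squares). Open circles at the bottom mark fetal lines with 0 counts of ENSECAG00000018100. The groups do not overlap for any of the 4, which was a condition for naming the 3 genes not called. The spread within a group is widest for ENSECAG00000009553 and ENSECAG00000023841.

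Genes expressed in every line of one group and near absent from the other were few. Presence was taken as at least 10 counts in all 3 libraries of a group. Near absence was taken as at most 3 counts in each library of the other group. Of all 21689 identifiers, 5 were then present in fetal lines alone and 3 in adult lines alone. With at least 50 counts required, the numbers were 0 and 1, the latter being ENSECAG00000018100. Of the 12516 genes tested, 0 were at 0 counts in all libraries of a group.

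Most fitted differences were small. The median absolute log2 fold change was 0.16, and its 90th percentile was 0.69. A fitted difference of at least 2-fold was seen in 661 genes, 5.28% of those tested, of which 401 were higher and 260 lower in fetal lines. The number rose to 1076 without fetal replicate 1 and to 1116 without adult replicate 3. In 456 of the 661 the fetal and adult libraries overlapped all the same, and in 205 they did not. At 4-fold or more there were 128 genes, 73 with overlapping and 55 with separate groups. Over all genes tested, the groups were separate in 826, or 6.60%, with 410 higher and 416 lower in fetal lines. Full separation of 3 lines from 3 has p = 0.1 in an exact permutation test, two-sided, so separation alone is not counted as a difference. The larger number of higher than lower genes among the 661 depended on which lines were included: 60.7% were higher with all 6 lines, 51.6% without fetal replicate 3 and 73.6% without adult replicate 1.

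**Figure D4:**
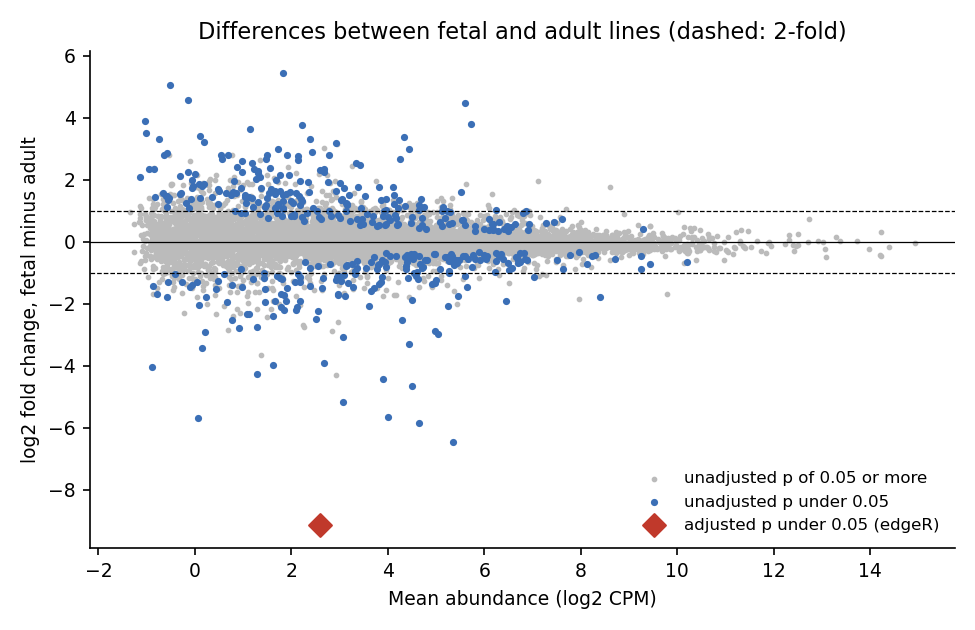
Log2 fold change, fetal minus adult, against mean abundance in log2 CPM for each of the 12516 genes tested. Grey points have an unadjusted p of 0.05 or more, the 431 blue points one under 0.05, and the red diamond is the 1 gene with an adjusted p under 0.05; the scatter widens towards low abundance.

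Since a p above the threshold does not show that levels were alike, the 95% interval of each fold change was read as the range of differences the lines allow. For 8137 genes (65.01%) the whole interval lay within 2-fold in either direction, and for 3504 it lay within 1.5-fold. The interval reached past 2-fold in both directions for 1006 genes, and past it in 1 direction but not the other for 3342. For the remaining 31 genes it lay wholly beyond 2-fold, 22 higher and 9 lower in fetal lines. These intervals are not adjusted for the number of genes, and 30 of these 31 genes did not pass the adjusted threshold. The median interval extended 0.60 log2 units to each side, with 7.24 degrees of freedom.

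How closely a difference could be bounded followed abundance. Among the 1469 genes at a mean of 100 CPM or more, which held 74.1% of counts, the interval lay within 2-fold for 85.9%, and 11 genes had a fitted difference of at least 2-fold. Between 10 and 100 CPM it lay within 2-fold for 82.6% of 6643 genes. Between 1 and 10 CPM the share was 37.6% of 3688 genes, and under 1 CPM it was 0.279% of 716. Genes under 10 CPM supplied 527 of the 661 with a fitted difference of at least 2-fold. The groups were separate in 11.2%, 8.46%, 5.61% and 4.15% of genes from the lowest to the highest of these bands. The median SE of the log2 fold change was 0.59 in the lowest and 0.20 in the highest band, so a 2-fold difference in a gene under 1 CPM was within the error of most such genes.

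**Figure D5:**
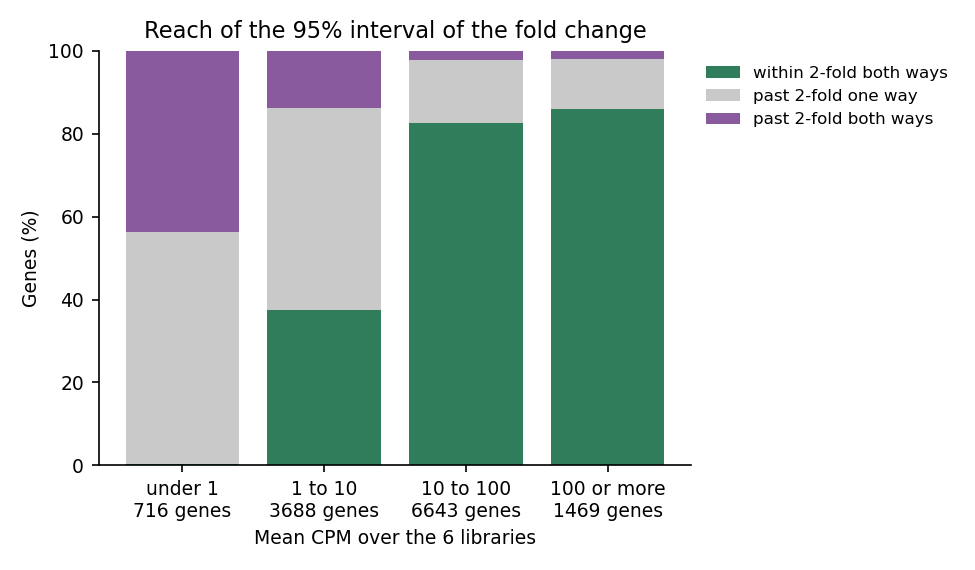
Percentage of genes, by mean CPM over the 6 libraries, whose 95% interval of the fetal-adult fold change lay within 2-fold in both directions (green), reached past 2-fold in 1 direction (grey) or in both (purple). The green share climbs from 0.279% under 1 CPM to 85.9% at 100 CPM or more.

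The most abundant transcripts were largely the same in both groups. The 100 most abundant genes of the 6 libraries made a union of 134, of which 68 were among the top 100 of every line. Together the 68 made up 34.1% ± 2.68 of the counts in fetal lines and 34.7% ± 3.56 in adult lines (SD, n = 3 each). A fetal and an adult line shared 78 to 91 of their top 100, 2 fetal lines 80 to 86 and 2 adult lines 87 to 88. Of the 134 genes 0 were called by edgeR. An unadjusted p under 0.05 was found for 1 of them (lower in fetal lines), against 3.44% of all genes tested and 2.11% of those at 100 CPM or more. The groups were separate in 4, against 6.60% and 4.15%, and the interval lay within 2-fold for 101, against 65.01% and 85.9%. The share of the 134 within 2-fold was thus above that of all genes tested and below that of genes at 100 CPM or more. Their median absolute log2 fold change was 0.19, against 0.16 over all genes tested and 0.13 among those at 100 CPM or more. Whether the abundant genes differed from the rest in these measures was not tested.

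The count of calls depended on the test. With DESeq2, 30 of 12494 genes with an adjusted p were called, or 0.240%, 18 higher and 12 lower in fetal lines. Their median absolute log2 fold change was 2.50. Both tests used the same counts of the same libraries, so overlap between them is not independent support. All 30 had separate groups and an unadjusted edgeR p under 0.05 in the same direction, and ENSECAG00000018100 was among them. So were the other 3 named genes, with DESeq2 adjusted p-values of 9.0e-07 for ENSECAG00000018739, 1.8e-09 for ENSECAG00000023841 and 0.000559 for ENSECAG00000009553. With limma-voom 1 gene was called, again ENSECAG00000018100 (adjusted p = 0.0159), and 406 had an unadjusted p under 0.05.

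Passage number was also entered as a covariate. The same single gene was then called (edgeR adjusted p = 0.0369), and 317 genes had an unadjusted p under 0.05. For passage itself edgeR called 0 of 12516 genes, with 137 at an unadjusted p under 0.05. With 6 lines this fit leaves 3 residual degrees of freedom among samples.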

How the data were processed

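Messenger RNA of 9 horse tenocyte cultures was sequenced, and 6 (3 fetal, 3 adult) were used here. The table the authors deposited holds estimated counts per Ensembl gene. FastQC, Salmon and R 3.5.2 are named in the submitters' processing notes; of Salmon's version, the genome build and the annotation, none is given in the sources used here. Libraries were made with a stranded kit, per the labels' protocols. Salmon divides reads that match several transcripts, and 1560 genes lay more than 0.01 from a whole number in at least 1 of the 6 libraries (3294 with no tolerance). Counting intervals and depth cover counting error only.

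Counts were rounded and tested in R 4.3.3 with edgeR 4.0.16 (TMM, filterByExpr, glmQLFit, glmQLFTest) on the 6 libraries, with group alone in the model; 12516 genes passed the filter. The F statistic of that fit gave the standard errors and intervals. The fit was tested on simulated data. Alternatives used DESeq2 1.42.0, limma 3.58.1 with voom, other scalings, filters and covariates, all 9 libraries, and each library left out. Libraries of the same group differed beyond sampling noise (chi-square over genes with 20 or more counts, 71.3 to 168 for each degree of freedom).

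Named genes had to be called or, failing that, have separate groups and at least 10 CPM in the higher group, in order of p, up to 2 each way. No identifier matched a symbol, so 0 of 22 gene lists were run. Which lines to compare, the lists and the tests were chosen with earlier results of these data known; the labels alone place a line in its group.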

Additional observations from a re-analysis of the deposited data

How the results depend on the processing

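The number of genes called was 1 under RLE scaling, library totals alone, a lifted filter, 5 CPM required in 3 libraries, limma-voom, a test for changes beyond 2-fold, passage as a covariate, a robust fit and the fit without genes holding any fractional count; in each it was ENSECAG00000018100. It was 30 with DESeq2 and 0 in the fit of all 9 libraries (581 at an unadjusted p under 0.05); the cause was not tested. Leaving out each line gave 0 to 1, with fewer samples in the fit, and leaving out fetal replicate 3 and adult replicate 1 together, an alternative added after seeing the data, gave 0 (350 at an unadjusted p under 0.05). The unadjusted count of 431 became 244 under the 5 CPM filter, where fewer genes were tested, and 307 to 804 with a line left out. Genes with an interval within 2-fold numbered 6323 to 8209 over the alternatives, against 8137. The number of genes tested differed too: 6323 was of 9872 without genes holding fractional counts, and 8209 was of 16653 with no filter. The 8137 was of 12516, so the counts do not rank these settings. The excess of distance between over within groups turned to -0.000292 under the 5 CPM filter and -0.0235 without both distant lines, and ran from -0.0485 to 0.111 with each line left out. The fetal minus adult share of the 100 most abundant genes ran from -2.73 to 1.09 percentage points with each line left out, against -0.604. The 661 fitted differences of at least 2-fold became 3042 with no filter, 213 under the 5 CPM filter, 1095 with all 9 libraries, and 603 to 1116 with a line left out. No paired analysis was possible because the labels carry no replicate numbers shared by the groups. Intervals were widest under 10 CPM; how much of that comes from depth was not tested.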

Other observations

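In the 3 stem-cell-derived cultures, which entered only the fit of all 9 libraries, the named genes had the following levels, scaled by library total alone. ENSECAG00000018739 was at 0.496, 0.0886 and 0.641 CPM, below every fetal and adult line. ENSECAG00000009553 was at 0.135, 0 and 0.148 CPM, and ENSECAG00000023841 at 0.496, 1.95 and 0 CPM, each also below every primary line. These levels describe the cultures, whose medium, passage and treatment differed from those of the primary lines.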
